A study of Homo sapiens with 12 samples.

Results

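The zinc finger genes of 19q13.4 are a dense family of DNA-binding repressors near the end of the long arm of human chromosome 19. They were read here in RNA-Seq counts of EZH2 mutant cells. The genes were chosen by name from a list of 60 ZNF symbols of this band. Of the 60 symbols, 51 were in the deposited table of 14438 genes, and all 51 could be tested. The symbols ZNF415, ZNF418, ZNF578, ZNF600, ZNF610, ZNF665, ZNF667, ZNF671 and ZNF677 were not in the table and were not analysed here. The cells were HEK293T, a human embryonic kidney line, stably infected with lentivirus that carried 1 form of EZH2, the histone H3 lysine 27 methyltransferase of the PRC2 complex. The line named EZH2 WT carried the unmutated enzyme and was the control. EZH2 Y641F and EZH2 A677G are gain-of-function (GOF) mutants, and EZH2 H689A/F667I is a loss-of-function (LOF) double mutant. Each of the 4 lines gave 3 replicates. The study's methods do not say that the cells' own EZH2 was removed, so each form is an addition to the cells' own gene. They describe 1 drug-selected, monoclonal population per form, so a difference between lines and the effect of an EZH2 form cannot be told apart.

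Most proteins of this family bind DNA through arrays of C2H2 zinc fingers and carry a KRAB domain at the other end. KRAB recruits TRIM28, which brings the H3K9 methyltransferase SETDB1, and the result is H3K9me3 heterochromatin, largely over transposable elements. The genes lie in clusters that grew by duplication of neighbours, so many of them are close copies of each other. In many cell types the 3′ exons of ZNF genes themselves carry H3K9me3, set with the help of ZNF274. H3K27me3, the mark that EZH2 makes, works through another pathway. The comparisons ask whether expression of these repressor genes moved with added GOF or LOF EZH2.

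A sample held 32137700 to 44562413 counts, and replicates of a line varied by a common biological coefficient of variation of 0.0471. Levels are given as CPM, counts scaled to a common library size, after trimmed mean (TMM) normalization. A gene was called when its edgeR quasi-likelihood p, adjusted by Benjamini-Hochberg over 14263 genes, was under 0.05. EZH2 itself had 154.3 to 162.8 CPM in EZH2 WT and 164.6 to 181.7 in EZH2 A677G. It had 208.7 to 227.8 CPM in EZH2 Y641F and 206.1 to 210.1 CPM in the LOF mutant. All 3 mutant lines were called higher than EZH2 WT for EZH2, by 0.46 ± 0.0399 for EZH2 Y641F (adjusted p = 1.57e-10), 0.13 ± 0.0401 for EZH2 A677G (adjusted p = 0.0294) and 0.40 ± 0.0400 for the LOF mutant (adjusted p = 1.15e-07) on the log2 scale. These counts take in both the added and the cells' own transcripts and so do not show which form was expressed. All 7 HEK293T-like markers were in the table. PAX2 had between 0 and 25 counts and KRT8 between 137 and 225, so both were low. Of 7 blood, liver and fibroblast markers, COL1A1 was in the table with 198 to 409 counts and PDGFRB with 4 to 32. The members as a whole were lowest in EZH2 WT replicate 2 and EZH2 Y641F replicate 1. There the median member deviated from its own mean over the samples by −0.0996 and −0.0979 on the log2 CPM scale, and the counts of members are also given without these samples.

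The 51 members were expressed at a low to moderate level. Their median of the mean level was 9.33 CPM, against 24.5 CPM over all genes, and in 46 the mean log2 CPM reached 1 or more. Their median exonic GC content was 43.7% against 47.8%, and 45 of 51 were below the median of all genes. Dividing by the summed exon length in kb allows levels of different genes to be compared. On that scale ZNF581 was highest at 13.6 CPM per kb, with 12.2 to 14.8 over the 12 samples. ZNF460 followed at 12.7, with 11.8 to 13.7, and the ranges of this pair overlapped. ZNF614 came next at 6.87, with 5.64 to 7.25, which did not overlap with ZNF581 or ZNF460. ZNF581 and its overlapping neighbour ZNF580 are short genes without a KRAB domain and differ in this from most of the family. The lowest were ZNF528 at 0.0711 CPM per kb, ZNF347 at 0.0843 and ZNF471 at 0.201. ZNF528 had 12 to 34 counts per sample and ZNF347 14 to 46, so neither was absent but both were measured with wide error. The order depends on the length used. With the median transcript length ZNF776 was highest, and ZNF581, ZNF460 and ZNF614 had 19.3, 24.9 and 33.2 CPM per kb.

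**Figure D1:**
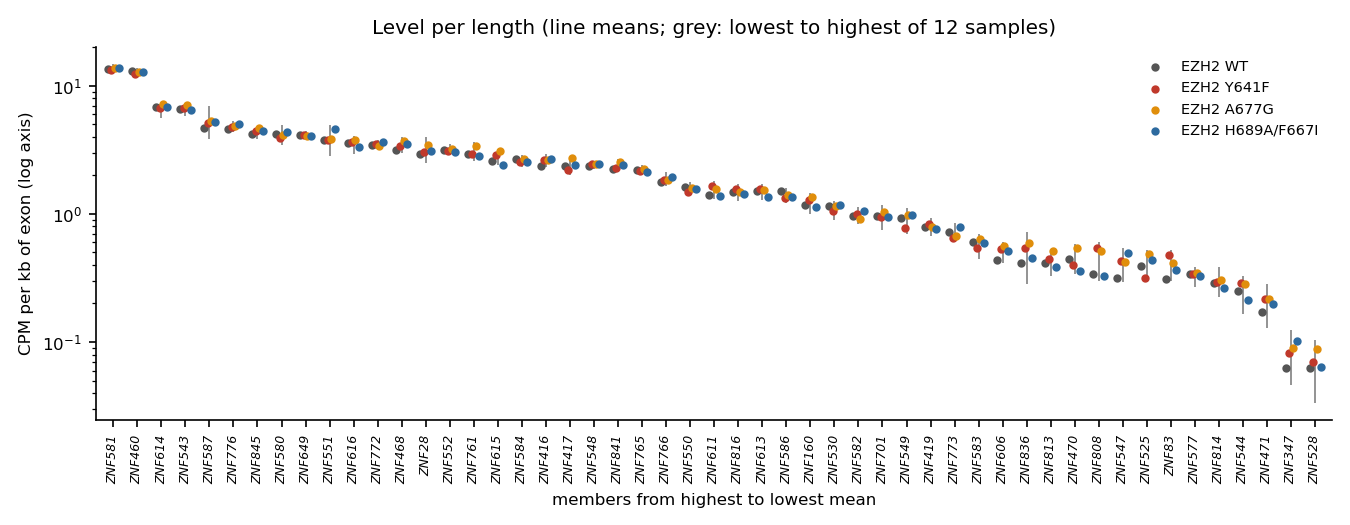
Level of each of the 51 members in CPM per kb of summed exon on a log axis, ordered from the highest to the lowest mean. Points are the means of the 3 replicates of each line and grey bars run from the lowest to the highest of 12 samples; the levels span from 13.6 for ZNF581 to 0.0711 for ZNF528, while the 4 lines of a gene mostly lie close together.

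In EZH2 Y641F, 2 of 51 members rose against EZH2 WT and 0 fell. Over all genes, 2.09% were called higher and 5.59% lower, so the share of members called higher, 3.92%, was near the background. The members that rose were ZNF83 and ZNF808, both in the first cluster of the band. In these bulk samples, more cells with a transcript and more of it per cell cannot be told apart. At an unadjusted p under 0.05, 3 members were higher and 1 was lower, against 7.85% and 11.4% of all genes. In 4 members all EZH2 Y641F replicates were higher than all EZH2 WT replicates and in 1 all were lower, against 9.28% and 11.7%. In all, 32 of 51 had a log2 fold change above 0, against 51.0% of all genes. Without EZH2 WT replicate 2, 32 of 51 were above 0 and 0 members were called. That fit called 135 of 14263 genes higher and 568 lower. DESeq2 and edgeR's exact test also called 0 members lower, and both called ZNF83 and ZNF808 higher.

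ZNF83 lies on the minus strand at chr19:52594060-52690559 (GRCh38). Its level was 2.44, 2.38 and 2.59 CPM in EZH2 WT and 4.14, 3.36 and 3.93 CPM in EZH2 Y641F. Every EZH2 Y641F replicate was above every EZH2 WT replicate. The log2 fold change was 0.63 ± 0.168 (SE), a 1.54-fold rise with an adjusted p of 0.0141. In EZH2 A677G the level was 3.19, 3.12 and 3.51 CPM, again above all EZH2 WT replicates, but the log2 fold change of 0.40 ± 0.171 did not pass the test (adjusted p = 0.154). In the LOF mutant it was 2.84, 2.699 and 3.23 CPM, also above EZH2 WT, with a log2 fold change of 0.24 ± 0.174 (adjusted p = 0.779). Thus all 3 mutant lines lay above EZH2 WT, which was the lowest line for ZNF83. The call in EZH2 Y641F was lost without EZH2 WT replicate 1, EZH2 WT replicate 2 or EZH2 Y641F replicate 3, where the log2 fold change was 0.62, 0.60 and 0.61.

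ZNF808 lies on the plus strand at chr19:52527652-52564464. The gene encodes a KRAB zinc finger protein that represses MER11 elements and whose loss in people causes failure of pancreas development. Its level was 2.00, 1.55 and 1.51 CPM in EZH2 WT and 2.62, 3.05 and 2.55 CPM in EZH2 Y641F, with no overlap. The log2 fold change was 0.69 ± 0.204, a 1.62-fold rise (adjusted p = 0.0279). EZH2 A677G had 2.27, 2.95 and 2.47 CPM, also all above EZH2 WT. Its log2 fold change of 0.60 ± 0.206 missed the threshold (adjusted p = 0.0651), and edgeR's exact test called it (adjusted p = 0.0278). The LOF mutant, with 1.62, 1.81 and 1.49 CPM, overlapped with EZH2 WT, at a log2 fold change of −0.04 ± 0.217. Between EZH2 Y641F and EZH2 A677G the log2 difference was 0.10, with a 95% interval from −0.30 to 0.49. ZNF808 overlaps with ZNF701 on the same strand, and it had 48 to 120 counts per sample. The EZH2 Y641F call was lost with only the compared lines in the fit (adjusted p = 0.0506), and without EZH2 WT replicate 2, EZH2 WT replicate 3 or EZH2 Y641F replicate 2.

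**Figure D2:**
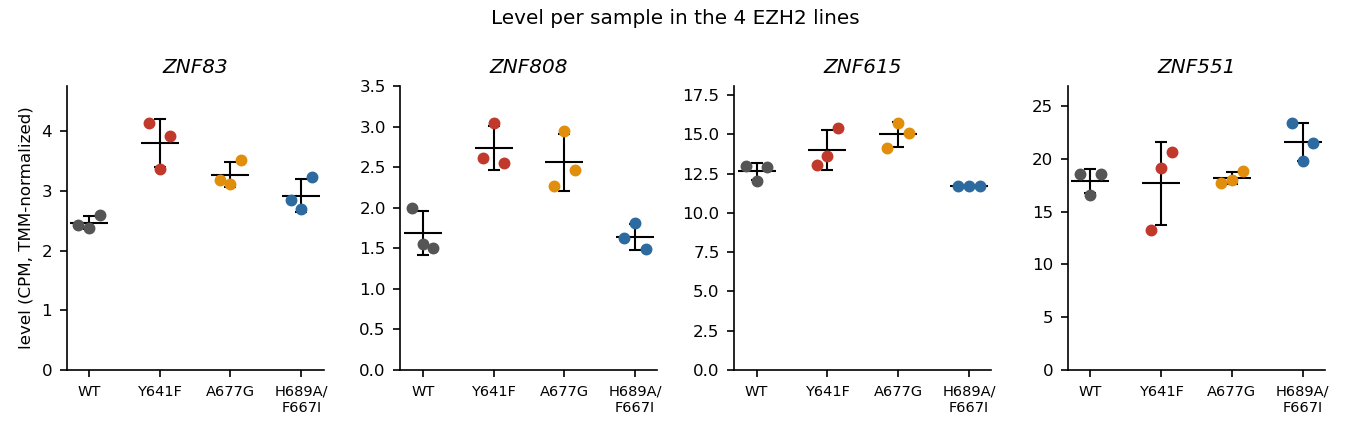
Level in CPM (TMM-normalized) of the 4 members called in at least 1 comparison, for each of 3 replicates per line (points), with mean and SD (bars); all axes start at 0. ZNF83 and ZNF808 are higher in EZH2 Y641F than in any EZH2 WT replicate, ZNF615 is lowest in the LOF mutant at about 11.7 CPM in all replicates, and ZNF551 is highest there but overlaps with EZH2 Y641F.

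RefSeq promoters (GRCh38.p14, 250 bases before to 50 after the start, the first listed start) matched 46 of the 51 members. By global alignment, 10 of them formed 1 family at 75% identity or more to some other member: ZNF468, ZNF525, ZNF611, ZNF701, ZNF761, ZNF765, ZNF808, ZNF813, ZNF83 and ZNF845. Identity within it was 74.3% to 87.0%, with a median of 80.0% over 45 pairs, against a median of 53.3% to the other members. The promoters of ZNF83 and ZNF808 were 78.3% identical, below the median of the family. The family was defined after fold changes were known and serves as a description. The promoters of the pair that rose are shown, with that of ZNF611, whose promoter was 87.0% identical to that of ZNF808. Capitals mark the longest run that these promoters share, 19 bases, on the strand of the gene. On either strand it is held by 4 of the 46 member promoters and by 0.0171% of all 35116 RefSeq promoters. The other member that holds it is ZNF701, which also holds the longer run of 33 bases shared by ZNF83 and ZNF808. ZNF701 did not rise in EZH2 Y641F, with a log2 fold change of −0.02 ± 0.144.
ZNF808, chr19:52527418-52527717, plus strand: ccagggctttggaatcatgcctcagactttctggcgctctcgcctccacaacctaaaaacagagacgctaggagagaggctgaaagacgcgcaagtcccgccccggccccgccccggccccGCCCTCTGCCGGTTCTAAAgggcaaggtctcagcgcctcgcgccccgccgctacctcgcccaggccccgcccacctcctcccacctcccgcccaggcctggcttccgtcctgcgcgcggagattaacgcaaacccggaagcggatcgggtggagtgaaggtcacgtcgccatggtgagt
ZNF83, chr19:52690447-52690746, minus strand: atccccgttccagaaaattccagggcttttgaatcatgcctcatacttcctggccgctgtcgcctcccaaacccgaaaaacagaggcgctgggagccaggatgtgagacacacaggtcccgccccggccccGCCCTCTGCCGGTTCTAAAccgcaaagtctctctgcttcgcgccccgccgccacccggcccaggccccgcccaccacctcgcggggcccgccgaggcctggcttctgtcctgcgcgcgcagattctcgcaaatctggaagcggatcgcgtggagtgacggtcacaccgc
ZNF611, chr19:52734995-52735294, minus strand: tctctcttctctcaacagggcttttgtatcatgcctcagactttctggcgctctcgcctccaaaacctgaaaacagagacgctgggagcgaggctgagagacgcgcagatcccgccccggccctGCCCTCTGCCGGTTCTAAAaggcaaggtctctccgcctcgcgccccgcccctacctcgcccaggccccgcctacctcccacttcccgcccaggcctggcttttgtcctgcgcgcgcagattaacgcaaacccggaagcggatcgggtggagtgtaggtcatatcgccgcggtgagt

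Members with like promoters did not share 1 fold change. In EZH2 Y641F the family ranged from −0.30 for ZNF525 to 0.69 for ZNF808 on the log2 scale, with a median of 0.09, and the 36 members with another promoter had a median of 0.04. ZNF611 itself had a log2 fold change of 0.22 ± 0.103 in EZH2 Y641F and was not called (adjusted p = 0.236). Without EZH2 Y641F replicate 1 it was called, so that 3 members rose, where 289 of 14263 genes rose. In EZH2 A677G all 10 family members had a log2 fold change above 0, with a median of 0.22, and 27 of the other 36 did, with a median of 0.07. All 10 lie in the first cluster of the band, ZNF577 to ZNF813. There 23 of 24 members were above 0 in EZH2 A677G, with a median of 0.19. Promoter family and position were not separated here. In the LOF mutant 4 of 10 were above 0, with a median of −0.03. The member promoters were rich in CG dinucleotides, with a median of 25 (12 to 35) in 300 bases against 14 over all RefSeq promoters. At least 25 were held by 52.2% of the member promoters and by 32% of all. The cut of 25 equals the members' own median, so their share follows from it. The RefSeq promoters were not limited to genes of the count table.

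In EZH2 A677G, 0 members were called in either direction against EZH2 WT, where 6.48% of all genes were called lower and 2.07% higher. At an unadjusted p under 0.05, 10 members were higher and 0 lower, against 8.13% and 12.3% of all genes. DESeq2 called 0 members, and edgeR's exact test called ZNF808 alone. The members still leaned to 1 side. A log2 fold change above 0 was seen in 41 of 51 members, 80.4%, against 51.7% of all genes. The median was 0.09, with a range from −0.10 to 0.60, while the median of all genes was 0.00454. In 15 members every EZH2 A677G replicate was above every EZH2 WT replicate, and in 0 members the reverse held. Over all genes, 12.5% lay wholly higher and 14.7% wholly lower. Named after their values were seen, the 15 included ZNF615, ZNF841, ZNF808, ZNF83, ZNF611, ZNF468, ZNF160, ZNF525 and ZNF813 of the first cluster. ZNF547, ZNF548, ZNF416, ZNF417 and ZNF606 were of the last cluster, and ZNF470 lies between these clusters. In EZH2 Y641F, ZNF525 went the other way, with every replicate below every EZH2 WT replicate. For 40 of 51 members the 95% interval of the change lay within 1.5-fold, and over all genes this held for 11204 of 14263. Without EZH2 WT replicate 2, 39 of 51 members were above 0, the median was 0.08 and 0 members were called. That fit called 142 of 14263 genes higher and 683 lower. The size of the lean moved with the controls, and without EZH2 WT replicate 3 the median was 0.15. Leaving out a replicate gave at most 1 call. It was ZNF468 without EZH2 WT replicate 3, ZNF615 without EZH2 Y641F replicate 1 and ZNF28 without EZH2 A677G replicate 3. Of 14263 genes, these fits called 230, 410 and 163 higher, in this order. With only EZH2 A677G and EZH2 WT in the fit, ZNF615 and ZNF468 were called. Of 14263 genes, that fit called 497 higher and 1121 lower.

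The summed level of the 51 members was also highest in EZH2 A677G, with a mean of 648.1 CPM against 609.4 CPM in EZH2 WT. The sum was 615.3, 600.0 and 613.0 CPM in EZH2 WT and 647.3, 645.1 and 652.0 CPM in EZH2 A677G. It was 628.5, 621.9 and 612.6 CPM in the LOF mutant, and all EZH2 A677G samples lay above all samples of both these lines. EZH2 Y641F gave 573.6, 615.3 and 658.7 CPM, the widest range, which covered all other samples. Replicate 1 of EZH2 Y641F was the lowest of the 12. Without it 38 of 51 members were above 0 for EZH2 Y641F, and their median log2 fold change was 0.09 in place of 0.04, close to the value of EZH2 A677G.

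ZNF836 was among the largest changes in both GOF mutants and did not pass the test in either. It had 1.84, 1.35 and 2.72 CPM in EZH2 WT, 3.40, 1.94 and 2.32 for EZH2 Y641F, and 2.69, 2.36 and 3.29 for EZH2 A677G. The replicates of the lines overlapped, and levels within a line differed by up to 2.02-fold. The log2 fold changes were 0.39 ± 0.237 in EZH2 Y641F (adjusted p = 0.394) and 0.51 ± 0.236 in EZH2 A677G (adjusted p = 0.210).

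In the LOF mutant 0 members were called against EZH2 WT, where 0.161% of all genes were called lower and 0.140% higher. At an unadjusted p under 0.05, 3 members were higher and 0 lower, against 4.20% and 4.10% of all genes, and neither DESeq2 nor edgeR's exact test called any. The median log2 fold change was 0.02, and 27 of 51 members were above 0, against 51.2% of all genes. The largest changes, leaving out members whose mean log2 CPM was under 1, were ZNF470, ZNF551 and ZNF83. ZNF470 had 4.49, 3.81 and 4.53 CPM in EZH2 WT and 3.54, 3.39 and 3.54 CPM in the LOF mutant. The lines did not overlap, but the log2 fold change of −0.29 ± 0.151 was not called (adjusted p = 0.637). Wholly lower replicates were seen in 3 members and wholly higher ones in 5, where all genes gave 7.14% and 7.89%. For 43 of 51 members the 95% interval lay within 1.5-fold, as it did for 11786 of 14263 genes. Without EZH2 WT replicate 2, 26 of 51 members were above 0.

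**Figure D3:**
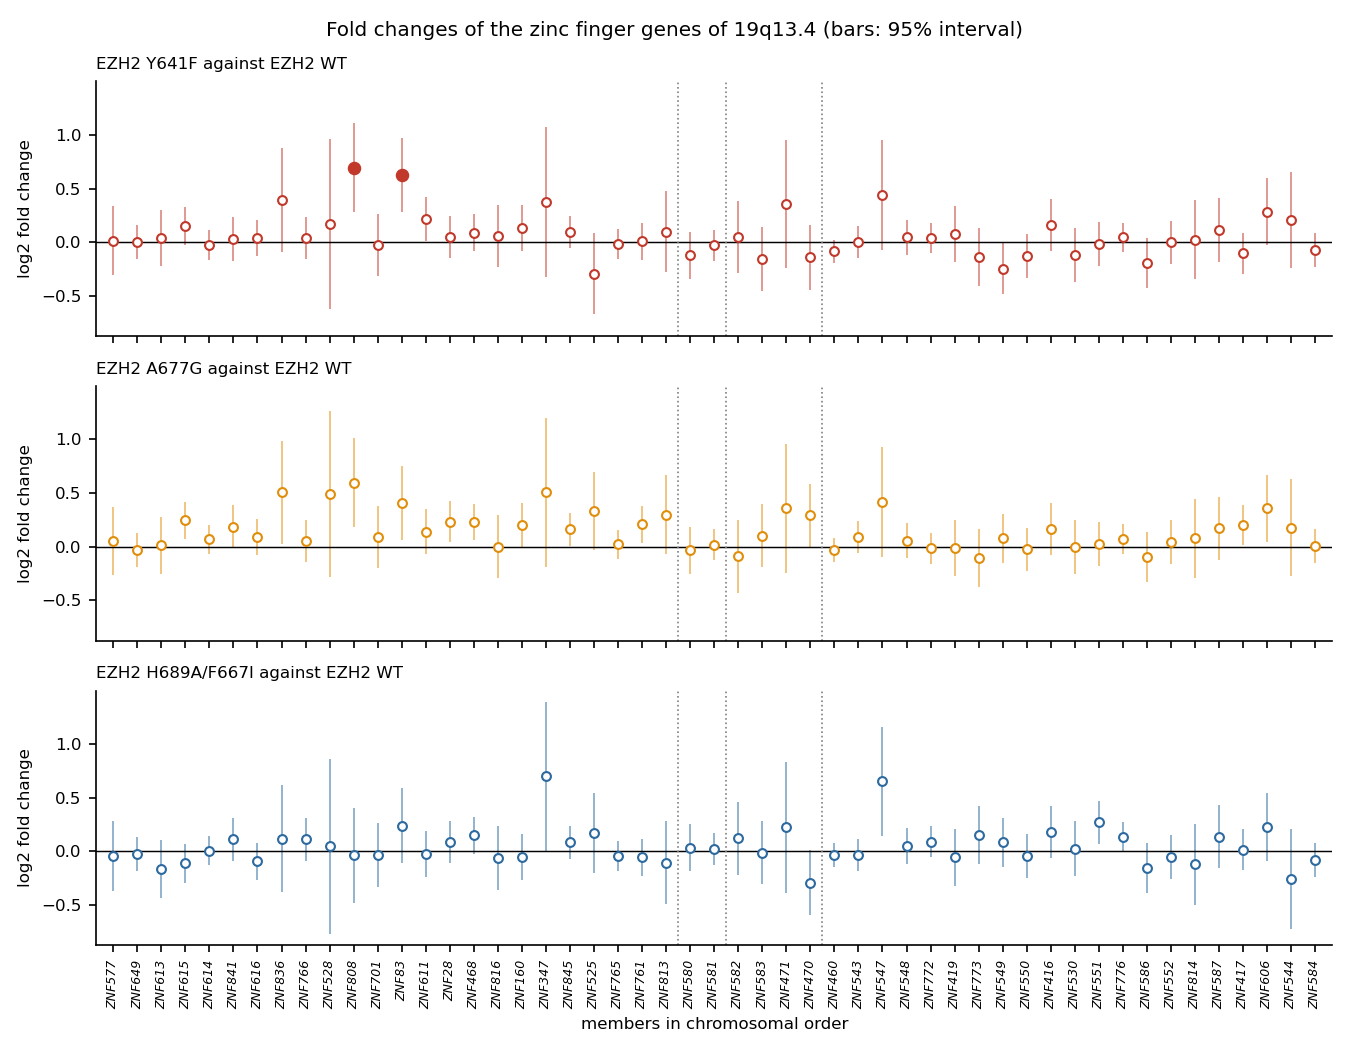
Log2 fold change of each member against EZH2 WT with its 95% interval, for the 3 mutant lines, with members in chromosomal order and dotted lines where neighbouring starts lie over 500 kb apart. Filled points were called, which holds for ZNF808 and ZNF83 in EZH2 Y641F; in EZH2 A677G 41 of 51 points lie above 0, and in the LOF mutant 27 do.

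Set against the LOF mutant, the mean of the GOF mutants was higher in 2 members and lower in 1. Over all genes 3.81% were called higher and 8.75% lower. ZNF615, on the minus strand at chr19:51991332-52008230, was among the members that rose. It had 13.0, 13.6 and 15.4 CPM in EZH2 Y641F and 14.2, 15.7 and 15.1 CPM in EZH2 A677G. In the LOF mutant it had 11.7 CPM in each of the 3 replicates, below every GOF replicate. The log2 difference was 0.31 ± 0.0765, or 1.24-fold (adjusted p = 0.00431). Against EZH2 WT, with 13.0, 12.04 and 12.9 CPM, its log2 fold change was 0.15 ± 0.0868 for EZH2 Y641F, 0.24 ± 0.0865 for EZH2 A677G and −0.11 ± 0.0889 for the LOF mutant. None of these was called, although the EZH2 WT replicates lay between the GOF and LOF replicates with no overlap. The ZNF615 call held with DESeq2, under each scaling and filter tried and without any 1 replicate. The fit with no filter kept the same 14263 genes as the main fit, so it could not change a call. The ZNF615 call was lost where a log2 difference of at least 1 was also asked.

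ZNF808 also rose in this comparison, by 0.68 ± 0.182 on the log2 scale (adjusted p = 0.00845), with all 6 GOF replicates above the LOF replicates. Without LOF replicate 3 the difference was 0.62 and no longer called. ZNF551, on the plus strand at chr19:57681969-57717301, was the member that fell. It had 13.2, 19.1 and 20.7 CPM for EZH2 Y641F, 17.7, 17.96 and 18.8 for EZH2 A677G, and 23.4, 19.8 and 21.5 for the LOF mutant. EZH2 Y641F overlapped with the LOF mutant, while EZH2 A677G lay wholly below it. The log2 difference was −0.27 ± 0.0849 (adjusted p = 0.0307). EZH2 WT had 18.5, 16.5 and 18.6 CPM, all below the LOF replicates, but the log2 fold change of the LOF mutant against EZH2 WT, 0.27 ± 0.0995, was not called (adjusted p = 0.392). The ZNF551 call rested on few samples: DESeq2 did not make it (adjusted p = 0.192), nor did the fit without EZH2 Y641F replicate 1, whose level was the lowest, where the difference was −0.18. It was also lost without EZH2 A677G replicate 1 or 2 and without LOF replicate 1 or 3, with differences of −0.26, −0.26, −0.20 and −0.27. Across all 51 members the median difference was 0.04, and 33 were above 0, against 51.6% of all genes. At an unadjusted p under 0.05, 8 were higher and 2 lower, against 9.91% and 13.9%. In 3 members all GOF replicates were above all LOF replicates and in 0 all were below, where all genes gave 5.16% and 8.77%. ZNF470, with a difference of 0.37 ± 0.131, missed the threshold (adjusted p = 0.0613) and was called by DESeq2 (adjusted p = 0.0492). ZNF836 had a difference of 0.33 ± 0.206 (adjusted p = 0.344).

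EZH2 Y641F and EZH2 A677G were not told apart by any member. Over all genes 0.0140% were called lower in EZH2 Y641F and 0.0701% higher. At an unadjusted p under 0.05, 5 members were lower in EZH2 Y641F and 0 higher, against 3.21% and 3.69% of all genes, and DESeq2 and edgeR's exact test called 0. The largest differences were those of ZNF525, ZNF470 and ZNF549. ZNF525 had 2.31, 2.13 and 2.39 CPM in EZH2 Y641F and 3.63, 3.49 and 3.43 CPM in EZH2 A677G, with no overlap. EZH2 WT, with 2.54, 2.69 and 3.17 CPM, lay between them. The log2 difference was −0.63 ± 0.180 (adjusted p = 0.307). ZNF525 overlaps with ZNF765 on the same strand. ZNF470 had 4.35, 3.31 and 3.93 CPM in EZH2 Y641F against 5.18, 5.65 and 4.83 in EZH2 A677G, a difference of −0.43 ± 0.144 (adjusted p = 0.491). ZNF549, which overlaps with ZNF550 on the opposite strand, had 6.49, 7.51 and 7.76 CPM against 8.88, 9.02 and 9.35, a difference of −0.32 ± 0.114 (adjusted p = 0.530). The median difference of the members was −0.06, 40 of 51 were below 0, and 11 were above it, against 50% of all genes. Wholly lower replicates were seen in 6 members and wholly higher ones in 0, where all genes gave 4.86% and 5.33%. Without EZH2 Y641F replicate 1 the median was −0.01.

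By position the members fell into 4 stretches, split where neighbouring starts lay over 500 kb apart. The first, from ZNF577 to ZNF813 (chr19:51804816-53496255), held 24 members, among them ZNF83, ZNF808 and ZNF615. In EZH2 A677G 23 of these 24 had a log2 fold change above 0, with a median of 0.19. In EZH2 Y641F 20 of 24 did, with a median of 0.06, and in the LOF mutant 11 of 24, with a median of −0.03. The last, from ZNF460 to ZNF584 (chr19:57280051-58431736), held 21 members, ZNF551 among them. In EZH2 A677G 14 of 21 were above 0, with a median of 0.06. In EZH2 Y641F 10 of 21 were above 0, with a median of −0.00138, and in the LOF mutant 12 of 21, with a median of 0.02. Between them lay ZNF580 with ZNF581 and a group of 4 from ZNF582 to ZNF470. The comparisons share the EZH2 WT samples, and the stretches were compared as a description, with no test.

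Other genes were counted in the same way. Inside the same stretch, 46 genes not named ZNF had median log2 fold changes of −0.03, −0.00924 and −0.03 in EZH2 Y641F, EZH2 A677G and the LOF mutant, in this order. The 32 other ZNF genes of the stretch had medians of 0.03, 0.09 and 0.03. Elsewhere on chromosome 19, 127 ZNF genes had medians of 0.07, 0.10 and −0.02. Of these 127, 10 rose in EZH2 Y641F (7.87%, against 2.09% of all genes), 15 rose in EZH2 A677G (11.8% against 2.07%) and 1 fell in each (0.787% against 5.59% and 6.48%). Against the LOF mutant, 21 of the 127 were higher in the GOF mean, 16.5% against 3.81% of all genes, and 2 were lower, 1.57% against 8.75%. On other chromosomes, 245 ZNF genes had medians of 0.03, 0.04 and −0.02, of which 3 rose in EZH2 Y641F, 7 rose in EZH2 A677G and 5 fell in each. The median of the members in EZH2 A677G was thus close to those of the other ZNF genes on chromosome 19 and above that of their neighbours not named ZNF. Removing each sample's trend with GC content left the members' medians at 0.02, 0.08 and 0.01 and the same calls.

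**Figure D4:**
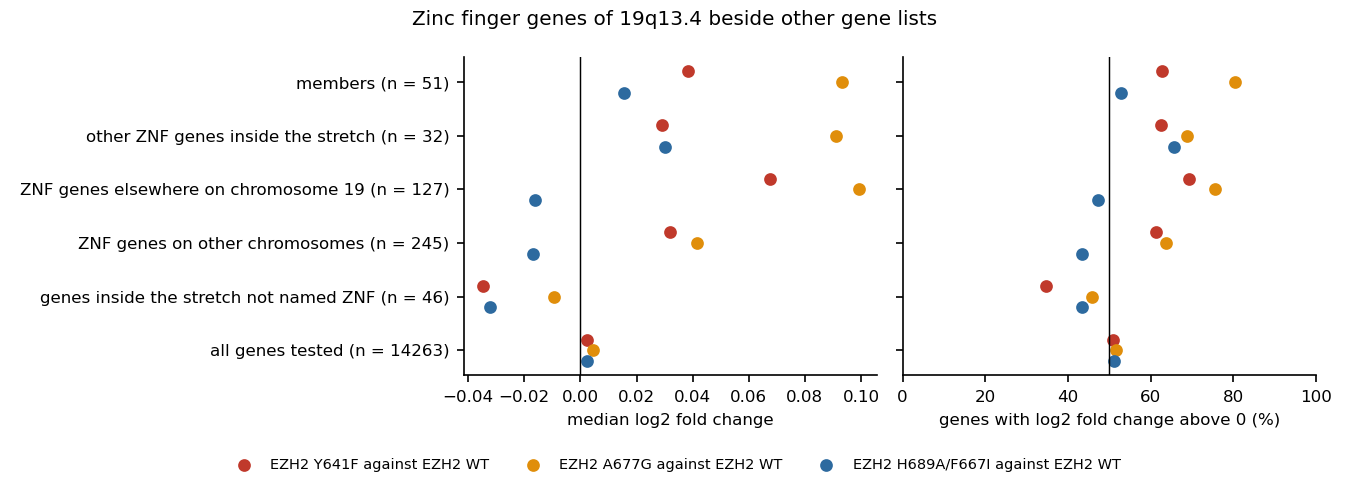
Median log2 fold change (left) and percent of genes with a log2 fold change above 0 (right) for the members and other gene lists, for each mutant against EZH2 WT. In EZH2 A677G the members and the 2 other lists of ZNF genes on chromosome 19 lie near 0.09 to 0.10, and the neighbours not named ZNF lie near 0.

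Genes of the KRAB co-repressor pathway did not pass the test in any mutant against EZH2 WT. The list held 27 genes, all in the table, and DESeq2 and edgeR's exact test also called 0 of them. At an unadjusted p under 0.05 3 were higher and 1 lower for EZH2 Y641F, 4 and 1 for EZH2 A677G, and 0 and 2 for the LOF mutant. Over all genes the shares higher and lower at this threshold were 7.85% and 11.4%, 8.13% and 12.3%, and 4.20% and 4.10%, in the same order. TRIM28, the scaffold that KRAB binds, had 640.7 to 740.3 CPM over the 12 samples, and its log2 fold changes were −0.08 ± 0.0371, −0.09 ± 0.0371 and −0.10 ± 0.0371 in the 3 mutants. It was the 1 lower gene counted above in each GOF mutant and 1 of the 2 in the LOF mutant. Its adjusted p in the quasi-likelihood test was 0.198, 0.140 and 0.416, and its replicates overlapped with those of EZH2 WT in each mutant. SETDB1, the H3K9 methyltransferase, had 68.6 to 75.1 CPM, and ZNF274 had 15.2 to 19.01 CPM. Between the GOF mean and the LOF mutant, ATF7IP, a partner of SETDB1, was higher by 0.16 ± 0.0435 on the log2 scale (adjusted p = 0.0126). TRIM24, a relative of TRIM28, was higher by 0.13 ± 0.0342 (adjusted p = 0.0101). All other genes of the list were not called there, so that 2 of 27 (7.41%) were higher, against 3.81% of all genes.

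The spread between replicates set what could be seen. The median SD of log2 CPM within a line was 0.134 for the members and 0.0868 for all genes, and 43 of 51 members were above the latter. For most members a larger spread went with a lower level, but ZNF587 did not follow this. ZNF587 and the nearby ZNF417 are close paralogs that repress HERV-K elements, and reads of such copies can be divided between them in counting. Whether this bears on the spread of ZNF587 was not tested. For ZNF417 the SD of log2 CPM within a line was 0.111. ZNF587 had 40.3, 34.1 and 29.6 CPM in EZH2 WT, 34.2, 29.0 and 49.3 for EZH2 Y641F, 38.4, 28.4 and 50.9 for EZH2 A677G, and 43.6, 42.5 and 28.1 for the LOF mutant. Levels within a line differed by up to 1.79-fold and the SD within a line was 0.356, higher than for 91.7% of all genes. The lines overlapped fully. ZNF814, which overlaps with ZNF587 on the opposite strand, had its highest levels in the same samples, 5.18 CPM in EZH2 Y641F replicate 3 and 4.96 CPM in EZH2 A677G replicate 3. ZNF587, ZNF814 and ZNF417 were singled out after their values were seen. In all, 16 members overlap with another member, 5 pairs on the same strand and 3 pairs on opposite strands.

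**Figure D5:**
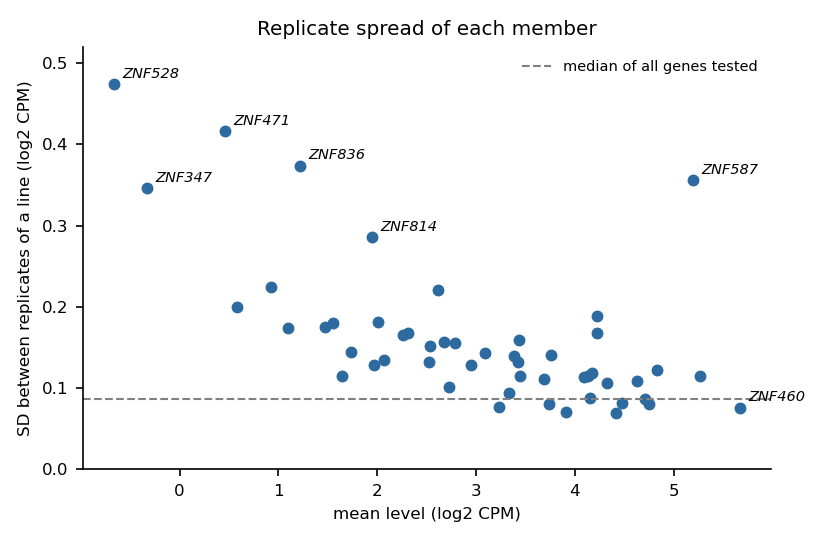
SD between replicates of a line (log2 CPM, pooled over 4 lines) against the mean level (log2 CPM) of each of the 51 members, with the median SD of all genes tested, 0.0868, as a dashed line. ZNF528, ZNF347, ZNF471 and ZNF836 combine a low level with a wide spread, while ZNF587 has a spread of 0.356 at a high level.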

How the data were processed

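RNA-Seq was analysed in 12 samples, 3 replicates of each of 4 HEK293T lines. The libraries came from a stranded mRNA kit. According to the study's methods and the submitters' processing notes, reads were trimmed with Trim Galore 0.6.5, aligned to GRCh38 with STAR 2.7.9a, and transcripts were estimated with Salmon 1.2.0. The deposited values are the authors' raw counts for each gene symbol, whole numbers with no normalization. The step from transcripts to symbols, its strand setting and the filter behind the 14438 genes are not given in the sources used here, and reads of near-identical ZNF paralogs and overlapping genes may be divided among them.

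The tests were run with edgeR 4.0.16 in R 4.3.3: TMM factors, then the quasi-likelihood test on all samples with 1 coefficient per line, adjusted by Benjamini-Hochberg over 14263 genes. Left out were 175 genes without a count in any replicate of the LOF mutant or of EZH2 A677G. Log2 CPM used a prior count of 2. Totals of 32137700 to 44562413 counts set the counting precision. Errors of fold changes are SE from the fit (3 replicates per line), and errors of levels are SD. Replicates are separate samples of 1 line, so p-values measure the spread between these samples. Symbols were matched to GENCODE on GRCh38, 13272 by name, 810 by an older symbol and 356 not at all. Promoters were aligned with Biopython 1.88 under Python 3.11.15, with scores of 1 for a match, -1 for a mismatch, -3 to open a gap and -0.5 to extend it.

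The members and gene lists were chosen with earlier results of these data known. The members described singly are those called in any comparison, the 3 largest changes per comparison among those whose mean log2 CPM reached 1, and the 3 highest and 3 lowest per length. Alternatives were edgeR's exact test, DESeq2 1.42.0, upper-quartile factors, library totals, genes at 0 kept, no filter, a minimum of 10 counts per sample, fits of the compared lines alone, a replicate block, GC trends removed with and without the block, a minimum log2 change of 1 in size, and fits without each replicate. Protein domains were not analysed here.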

Additional observations from a re-analysis of the deposited data

Results flagged for a closer look

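In the direct comparison of the GOF mean with the LOF mutant, 3 members differed between the groups, 2 higher and 1 lower. These were 3.92% and 1.96% of the members, against 3.81% and 8.75% of all genes. The share higher was thus near that of all genes, and the share lower was under it. ZNF615 was higher in the GOF mutants by 0.31 on the log2 scale, ZNF808 was higher by 0.68, and ZNF551 fell by 0.27. ZNF615 and ZNF808 did not overlap between the 6 GOF and 3 LOF replicates, and ZNF551 did. DESeq2 did not call ZNF551, and several fits without 1 replicate lost its call. The cause of these differences was not tested.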

How the results depend on the processing

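Directions of the named members and medians did not turn under the alternatives, except that the median of the members in EZH2 Y641F ranged from −0.0043 to 0.0898 as 1 replicate was left out. Leaving out 1 replicate gave 0 to 3 members higher for EZH2 Y641F, 0 to 1 higher for EZH2 A677G with a median of 0.0829 to 0.150, and, for the GOF mean against the LOF mutant, 1 to 3 higher and 0 to 1 lower. With only the compared lines in the fit, 1 member was higher for EZH2 Y641F and 2 for EZH2 A677G, where edgeR's exact test gave 1. Of 14263 genes, the fits of the compared lines called 179 and 497 higher, and the exact test called 355 higher for EZH2 A677G. DESeq2 gave 0 members lower in the GOF mean against the LOF mutant, where it called 1239 of 14263 genes lower. Where a log2 change of 1 in size was also asked, 0 members were higher in EZH2 Y641F and 0 were higher or lower against the LOF mutant. Co-repressor genes called in EZH2 A677G were 1 with upper-quartile factors and 2 with only the compared lines. Of 14263 genes, those fits called 191 and 497 higher and 1026 and 1121 lower. The cause of these shifts was not tested, apart from smaller fits and a stricter threshold by construction.

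Taken over all lines, replicate numbers did not pair the samples. Deviations of same-numbered samples correlated by more than 0.1 in 2 of 18 pairs, with r from −0.19 to 0.21 against −0.19 to 0.20 for other numbers. Both of these pairs were of EZH2 WT with EZH2 Y641F. Between these lines the same numbers gave r of 0.09, 0.14 and 0.21, and other numbers gave −0.19 to 0.04. With the replicate block, 2 members were higher in EZH2 Y641F, as without it, and the median in EZH2 A677G was 0.10. ZNF528, ZNF347, ZNF471 and ZNF836 had low counts and replicates that varied widely. ZNF836, with 52 to 143 counts per sample, had an SD of log2 CPM within a line of 0.374. ZNF808, with 48 to 120 counts, had an SD of 0.174. Whether low counts set the spread was not tested.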
